A study of Homo sapiens with 6 samples.

Results

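The EGFR family of receptors, 4 of its ligands and its feedback inhibitor were read in 6 RNA-seq libraries of SACC-83 cells. The members were the rows of the deposited expression table with the symbols EGFR, ERBB2, ERBB3, AREG, EREG, HBEGF, TGFA and ERRFI1, and all 8 were found among 27328 loci. The human line SACC-83 is established in culture and labelled as salivary adenoid cystic carcinoma cells. A group of 3 libraries carried an empty vector (genotype label WT), and a group of 3 carried circMYBL1 overexpression. The genotype labels of the second group read circMYBL1, circMYBL2 and circMYBL3, while their titles mark all 3 alike as overexpression, so they were kept as 1 group. No dose or time is labelled, and nothing states which promoter drove the construct, whether the lines were clones or pools, or whether libraries of a group came from separate cultures. The p-values below thus reflect the variation among these libraries alone, and that variation could be technical. The sequencing was meant to search for genes targeted by circMYBL1.

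The EGFR family consists of receptor tyrosine kinases at the cell surface that signal as pairs after ligand binding. The ligands are made as membrane-anchored precursors and are released by metalloproteases, chiefly ADAM17 and ADAM10. Activated receptors recruit adaptor proteins that switch on the RAS-ERK and PI3K-AKT cascades, and ERK in turn raises transcription of several ligands and of feedback inhibitors such as ERRFI1 and the dual-specificity phosphatases. In squamous and glandular epithelia this loop of ligand and receptor on the same cells supports growth and migration.

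Levels are given as FPKM, fragments scaled to gene length and to the mapped total, so they can be compared between genes. Values of single libraries follow the order of the replicate numbers 1, 2 and 3. Group values are mean ± SD with n = 3, and differences are on the scale of log2(FPKM + 1), where changes of low genes are understated. The FPKM sum of a library lay between 371776 and 408826, and read depth is not known from these values. The linear host gene MYBL1, counted at gene level so that the circle is not measured apart, read 7.15 to 10.3 FPKM in vector libraries and 359, 44 and 2020 FPKM in overexpression libraries, all above every vector library. The epithelial markers EPCAM (76.3 to 88.5 FPKM), KRT8 (741 to 1120 FPKM) and KRT18 (534 to 679 FPKM) were present in every library, as were the basal keratin KRT5 and the basal factor TP63. So were KRT14 (14.8 to 41.1 FPKM) and CDH1 (8.61 to 21.3 FPKM), while ACTA2 read 1.39 to 8.02 FPKM. Some other markers of the lists were low. The epithelial KRT19 read 0.243 to 1.1 FPKM and the myoepithelial CNN1 0.0441 to 0.254 FPKM, and neither was tested. The salivary secretory markers AQP5, AMY1A and PIP and the adenoid cystic marker KIT were listed at 0 in all 6 libraries, and MYB, often activated in this tumour type, read at most 1.21 FPKM. The libraries numbered 2 stood apart from the other 4 in both groups, so every result below is given by group and by replicate number.

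EGFR, the receptor for all 4 ligands studied, was by far the most abundant receptor mRNA of the family. EGFR (ENSG00000146648, GRCh38 chromosome 7, 55019021 to 55211628, plus strand, 34 merged exon blocks) read 104, 84.6 and 123 FPKM with vector and 93.5, 92.2 and 128 FPKM with circMYBL1. The libraries numbered 3 were the highest of each group, and the groups overlapped over almost their whole range. Between 94.4% and 96.8% of the 12064 tested loci lay below EGFR in a given library. No other member came near it, and ERRFI1, the next in order, reached at most 29.1 FPKM.

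ERBB2, the co-receptor that binds no ligand of its own, was expressed at a moderate level. ERBB2 (ENSG00000141736, GRCh38 chromosome 17, 39687914 to 39730426, plus strand) read 10.7, 19.1 and 13.4 FPKM with vector and 14.4, 18.9 and 13 FPKM with circMYBL1. The libraries numbered 2 were the highest in both groups. The ratio of EGFR to ERBB2 was therefore lowest in them, at 4.42 and 4.88, against 6.50 to 9.86 in the other 4. In the annotation 5.53% of the ERBB2 exon bases are shared with MIEN1 and 1.88% with PGAP3, both on the opposite strand, and the use of strand in counting is not given in the sources used here. MIEN1 read 13.5 to 15.4 FPKM in numbers 1 and 3 and 18.6 and 22.5 in number 2, and PGAP3 read 2 to 3.73 against 7.11 and 6.55. Both neighbours thus varied with the replicate number in the same direction as ERBB2, and their part in the ERBB2 value was not tested.

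ERBB3, the receptor that relies on a partner kinase for signalling, was at the edge of detection. ERBB3 (ENSG00000065361, GRCh38 chromosome 12, 56076799 to 56103505, plus strand) read 0.159, 0.510 and 0.170 FPKM with vector and 0.307, 0.270 and 0.263 FPKM with circMYBL1. EGFR exceeded it 166-fold to 723-fold within a library. ERBB4, the remaining receptor of the family and no member of the set, was listed at 0 in 5 libraries and read 0.0419 FPKM in vector replicate 2. The receptor mRNAs of these cells were thus almost entirely EGFR, with some ERBB2.

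Among the ligands, AREG, HBEGF and TGFA were present at similar levels and EREG was almost absent. AREG, which encodes amphiregulin (ENSG00000109321, GRCh38 chromosome 4, 74445134 to 74455009, plus strand), read 15.7, 6.22 and 14.7 FPKM with vector and 20.7, 8.55 and 17.1 FPKM with circMYBL1. The libraries numbered 2 were the lowest in both groups, below the other 4 by a wide margin, and the groups overlapped. EREG, which encodes epiregulin (ENSG00000124882, GRCh38 chromosome 4, 74365143 to 74388751, plus strand), was listed at 0 in vector replicates 1 and 3 and overexpression replicate 3. It read 0.0108 FPKM in vector replicate 2 and 0.0266 and 0.0468 FPKM in overexpression replicates 1 and 2. Both genes lie on the same strand with 56382 bases and 1 other annotated gene, AC021180.1, between them.

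The sequences before the starts of AREG, EREG and HBEGF are shown because AREG and HBEGF varied together across libraries, while EREG, on the same strand near AREG, was close to 0. Other members, such as EGFR and ERRFI1, were closer to each other in profile, as given below. They are the RefSeq promoter windows (GRCh38.p14), 5′ to 3′, without the bases that fall in an annotated exon, with motif matches in capitals.
AREG, chr4:74444886-74445133, plus strand: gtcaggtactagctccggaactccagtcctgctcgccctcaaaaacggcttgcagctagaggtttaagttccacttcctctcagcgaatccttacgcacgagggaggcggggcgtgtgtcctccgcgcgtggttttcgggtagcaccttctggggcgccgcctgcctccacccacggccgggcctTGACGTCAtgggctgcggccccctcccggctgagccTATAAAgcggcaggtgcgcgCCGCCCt
EREG, chr4:74364895-74365142, plus strand: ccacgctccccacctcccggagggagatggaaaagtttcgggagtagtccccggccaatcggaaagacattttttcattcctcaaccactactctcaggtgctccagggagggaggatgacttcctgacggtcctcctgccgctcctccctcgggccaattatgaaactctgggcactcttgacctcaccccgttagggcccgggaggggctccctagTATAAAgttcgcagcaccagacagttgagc
HBEGF, chr5:140346632-140346853, minus strand: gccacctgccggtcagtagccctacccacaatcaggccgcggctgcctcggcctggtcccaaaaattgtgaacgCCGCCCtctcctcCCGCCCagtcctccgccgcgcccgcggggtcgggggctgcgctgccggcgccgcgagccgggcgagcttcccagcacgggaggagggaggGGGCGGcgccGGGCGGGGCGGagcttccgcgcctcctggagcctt

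The motifs searched on both strands of the 250 bases before each start, chosen after the expression values were seen, were the AP-1 site TGANTCA, the cyclic AMP response element TGACGTCA, the TATA box TATAAA and the GC box GGGCGG. AREG held a cyclic AMP response element beginning 65 bases before its start, a motif found in 1.65% of 35116 RefSeq promoter windows of this length. It also held a TATA box at 29 bases and a GC box at 9 bases before the start. EREG held a TATA box at 32 bases before the start (10.7% of windows) and no match to the other 3. HBEGF held 5 GC boxes, some sharing bases, and no TATA box, and 42.6% of all windows held at least 1 GC box. None of the 3 windows held the AP-1 letters, which 6.57% of all windows hold. These matches describe letters in a window and are not shown to be sites. RefSeq windows were matched for 7 of the 8 members, all but ERBB3. Of the windows not shown, that of ERBB2 held an AP-1 match at 222 bases and that of ERRFI1 a GC box at 70 bases before the start. The whole ERBB2 window falls in annotated exons, so its match lies in exon sequence. The TGFA window held no match, but it lies inside the annotated gene. Its longest stretch outside exons is 58 bases (70553639 to 70553696), so it says little about the TGFA promoter. The window listed for EGFR begins at 55109589, inside the gene, and was not used as its promoter.

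HBEGF, which encodes the heparin-binding ligand (ENSG00000113070, GRCh38 chromosome 5, 140332843 to 140346631, minus strand), read 9.60, 6.65 and 11.5 FPKM with vector and 13.6, 6.12 and 13.3 FPKM with circMYBL1. Numbers 1 and 3 were higher under overexpression than with vector, while number 2 was the lowest of both groups and slightly lower under overexpression. TGFA, which encodes transforming growth factor alpha (ENSG00000163235, GRCh38 chromosome 2, 70447280 to 70554193, minus strand), read 12.2, 9.23 and 12.6 FPKM with vector and 14.5, 11.3 and 14.1 FPKM with circMYBL1. TGFA varied least of the 3 ligands, 1.57-fold from lowest to highest library, against 2.23-fold for HBEGF and 3.32-fold for AREG.

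ERRFI1, also called MIG6, encodes a cytoplasmic protein that binds the kinase domain of EGFR and inhibits it. ERRFI1 (ENSG00000116285, GRCh38 chromosome 1, 8004404 to 8026308, minus strand) read 23.8, 20.1 and 29.1 FPKM with vector and 25.0, 21.3 and 28.8 FPKM with circMYBL1. In both groups number 3 was highest and number 2 lowest, the order also seen for EGFR. The ratio of EGFR to ERRFI1 stayed between 3.73 and 4.43 in the 6 libraries.

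By mean level over the 6 libraries the order was EGFR, ERRFI1, ERBB2, AREG, TGFA, HBEGF, ERBB3 and EREG. EGFR exceeded ERRFI1 in 6 of 6 libraries and ERRFI1 exceeded ERBB2 in 6 of 6, although the lowest ERRFI1 value (20.1 FPKM) lay close to the highest ERBB2 value (19.1 FPKM). ERBB2 exceeded AREG in 2 of 6 libraries, both numbered 2, and AREG exceeded TGFA in 4 of 6, all but those numbered 2. TGFA exceeded HBEGF in 6 of 6, with overlapping ranges. The places of ERBB2, AREG and TGFA in the order thus depend on the replicate number.

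**Figure D1:**
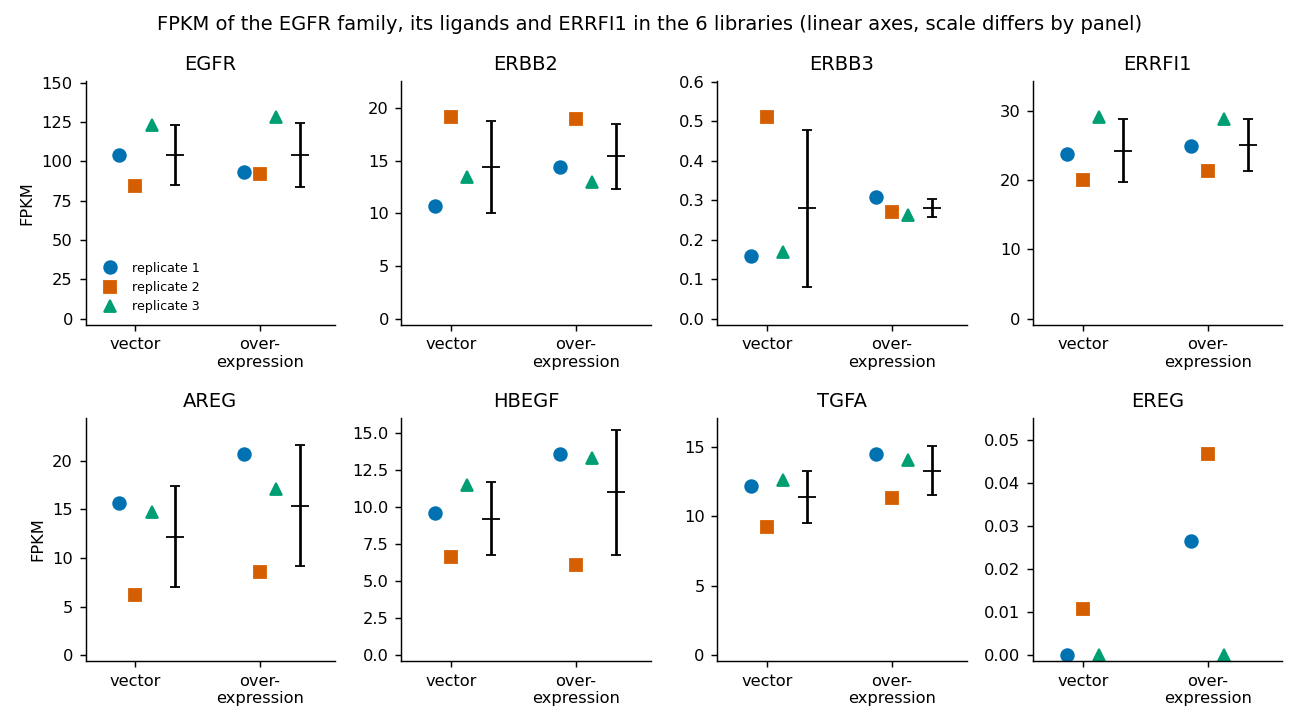
FPKM of the 8 genes (y axis, linear, a scale for each panel) in the vector and overexpression groups (x axis). Symbols are the libraries by replicate number, and the bar beside them is the mean with SD over 3 libraries (not drawn for EREG, which is listed at 0 in 3 libraries). In both groups the libraries numbered 2 are the lowest for AREG, HBEGF, TGFA and ERRFI1 and the highest for ERBB2, while EGFR is highest in number 3.

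Overexpression of circMYBL1 was compared with the empty vector to ask whether the circular RNA alters these genes, and no member passed the test. All 6 members with at least 1 FPKM in 3 or more libraries reached that level in all 6 libraries. ERBB3 and EREG reached it in none and were not tested. Of the 6 tested, 0 were called by limma at an adjusted p under 0.05, with the group as the only term or with the replicate number as a block. Over all 12064 genes the calls were 0 (0%) and 12 (0.0995%). At an unadjusted p under 0.05 limma had 0 of the 6 members without the block, where 65 genes (0.539%) passed. With the block it had 1, AREG (unadjusted p = 0.00772), where 868 genes (7.19%) passed. The groups overlapped for all 6, while 2.5% of all tested genes had every overexpression library above every vector library and 0.845% the reverse. The largest mean differences were those of AREG and TGFA, each higher in 3 of 3 pairs of same-numbered libraries, as were 16.5% of all tested genes.

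AREG measured 12.2 ± 5.20 FPKM with vector and 15.4 ± 6.22 FPKM under overexpression. The log2 fold change of 0.33 had an SE of 0.42 and an adjusted p of 1 (limma). The replicate block lowered the SE to 0.10, and the adjusted p was then 0.514 (limma). Within pairs 1, 2 and 3 the ratio was 1.32, 1.38 and 1.16. The difference between same-numbered libraries was thus small and of 1 direction, while the spread between numbers within a group was larger than it.

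TGFA measured 11.4 ± 1.87 FPKM with vector and 13.3 ± 1.75 FPKM under overexpression, a log2 fold change of 0.21 (SE 0.18, limma, adjusted p = 1) and an adjusted p of 0.696 with the block (limma). Its pair ratios were 1.19, 1.22 and 1.11. HBEGF, at 9.24 ± 2.44 against 11 ± 4.23 FPKM, gave 0.18 (SE 0.33), with pair ratios of 1.42, 0.920 and 1.16. HBEGF therefore did not move in 1 direction across the pairs.

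The receptors and the inhibitor differed little between the groups. EGFR, at 104 ± 19.3 against 104 ± 20.2 FPKM, gave a log2 fold change of 0.01 (SE 0.20; with the block SE 0.09), and its pair ratios of 0.901, 1.09 and 1.04 lay on both sides of 1. ERBB2, at 14.4 ± 4.34 against 15.4 ± 3.09 FPKM, gave 0.11 (SE 0.24), and its mean difference came from pair 1 (ratio 1.35), with 0.987 and 0.970 in pairs 2 and 3. ERRFI1, at 24.3 ± 4.53 against 25.1 ± 3.76 FPKM, gave 0.05 (SE 0.19). Each of these 3 had an adjusted p of 1 without the block and of 0.832 to 0.986 with it (limma).

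Over the 6 tested members the median log2 fold change was 0.15, beside 0.03 over all tested genes. The sign was positive for all 6 as deposited, but that of EGFR turned under TPM (-0.01), trimmed mean factors (-0.02) and quantile scaling (-0.05). Without vector replicate 2, the lowest library for AREG, the values were -0.06 for AREG, -0.01 for HBEGF, -0.13 for EGFR, -0.08 for ERRFI1 and 0.08 for TGFA. ERBB2 went the other way, to 0.33. That omission leaves number 2 in the overexpression group alone. Without overexpression replicate 2 AREG gave 0.68, HBEGF 0.52 and TGFA 0.32. With both libraries numbered 2 left out and the block kept, AREG gave 0.29, HBEGF 0.33 and TGFA 0.18.

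**Figure D2:**
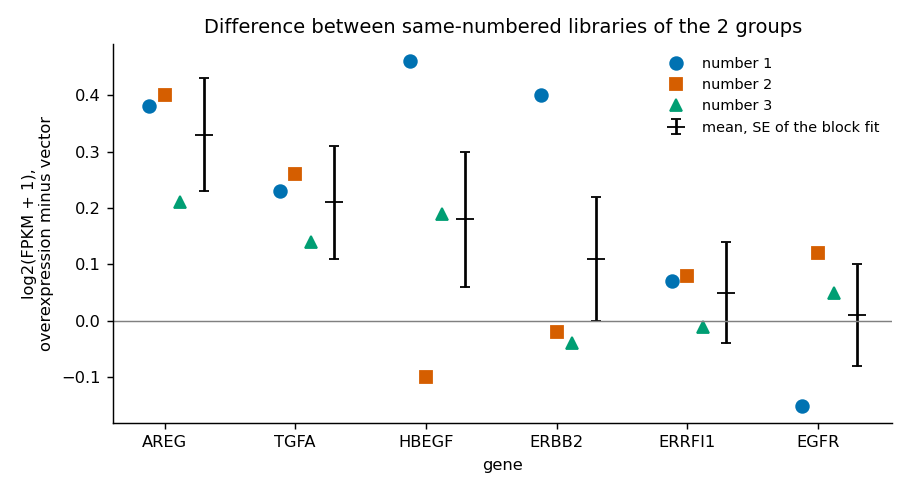
Difference in log2(FPKM + 1) between the overexpression and the vector library of the same replicate number (y axis) for the 6 tested genes (x axis). Symbols are the 3 pairs, and the bar is their mean with the SE of the block fit. AREG (0.21 to 0.40) and TGFA (0.14 to 0.26) lie above 0 in every pair, and the other 4 have pairs on both sides of 0.

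The replicate number was examined next, because the same-numbered libraries of both groups resembled each other, and all 6 tested members differed between numbers. The number was called at an adjusted p under 0.05 (limma F test over the 3 numbers, with the group as a term) for 6 of 6 members and for 5605 of all tested genes, which is 46.5%. The F test compares all 3 numbers and is not a test of number 2 alone. Relative to the mean of numbers 1 and 3, the members lower in number 2 were AREG, HBEGF, TGFA, ERRFI1 and EGFR, and ERBB2 was higher. Over all tested genes 27.2% were called and higher in number 2 and 19.3% called and lower (3282 and 2323 genes), and under quantile scaling the split was 2582 and 2786. What a replicate number stands for is not labelled.

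AREG had the largest difference. Its mean was 17.0 FPKM in numbers 1 and 3 and 7.39 FPKM in number 2, 2.31 times lower. The difference was -1.11 on the log2 scale (SE 0.10, limma F test, adjusted p = 0.000123), and it was -1.16 within the vector group and -1.05 within the overexpression group. AREG was thus lower in number 2 in both groups, and whether the groups differ in this was not tested.

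HBEGF had a mean of 12 FPKM in numbers 1 and 3 and 6.39 FPKM in number 2, a difference of -0.80 (SE 0.13, limma F test, adjusted p = 0.00228). It was -0.59 within the vector group and -1.02 within the overexpression group, a difference that was likewise not tested. TGFA had means of 13.4 and 10.3 FPKM, a difference of -0.35 (SE 0.10, adjusted p = 0.0433 by the limma F test). Its call ended under TPM (adjusted p = 0.0816), without a variance trend (0.0578) and without the group term (0.0934).

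ERBB2 went the other way, with 12.8 FPKM in numbers 1 and 3 and 19.0 FPKM in number 2, a difference of 0.54 (SE 0.12, limma F test, adjusted p = 0.0132). Adjusting each library for GC content and gene length, an alternative chosen after seeing the data, left 0.36 (adjusted p = 0.0349). EGFR was called (-0.33, SE 0.10, adjusted p = 0.0132 by the limma F test), and ERRFI1 likewise (-0.35, SE 0.10, adjusted p = 0.0196). Both rested on number 3. Without the libraries numbered 3, EGFR differed by -0.16 (adjusted p = 0.287) and ERRFI1 by -0.23 (adjusted p = 0.151), while without those numbered 1 the differences were -0.50 and -0.47. For EGFR the difference was -0.18 (SE 0.09) under quantile scaling and -0.50 (SE 0.07) with the GC and length correction. The F test over the 3 numbers called EGFR in both.

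Both libraries numbered 2 lay below the other 4 for 5 of the 6 tested members and above them for ERBB2. Over all tested genes 25.7% lay below and 35.9% above. Without a filter on low values, 23155 loci were tested and the number was called for 3389 of them. Among the 6 members it was then called for 2, AREG and ERRFI1, with the same log2 differences. Without the libraries numbered 2 it was called for 0 of 6 members and for 447 of the 12064 tested genes (limma). Several other measures moved with number 2. The summed level of the basal and myoepithelial markers was 417 and 494 FPKM in number 2 and 131 to 178 FPKM in the other 4, with 4 of 4 tested markers called higher, beside 27.2% of all tested genes. The epithelial marker sum was 1370 and 1550 FPKM against 1570 to 1890 FPKM, carried by KRT8 and KRT18, of which neither was called. CDH1, the 1 epithelial marker called of 4 tested, was higher in number 2 (0.85, limma F test, adjusted p = 0.00021). The fibroblast marker sum was 8.72 and 11.2 FPKM in number 2 against 2.95 to 4.64 FPKM, nearly all of it COL1A1 (1.15, limma F test, adjusted p = 0.000378), and COL1A2 was listed at 0 throughout. The endothelial marker sum was 1.38 and 1.71 FPKM against 0.101 to 0.289 FPKM, mostly PECAM1, and KDR was listed at 0 throughout. The leukocyte marker sum did not move with number 2, where it was 7.38 and 8.05 FPKM, within the 6.49 to 10.8 FPKM of the others. Nearly all of it was CD68, and PTPRC and CD3E were listed at 0 throughout. Fewer loci were listed at 0 in number 2 (7269 and 7442) than in the others (7675 to 8570). The part of these in the members' differences was not tested. In bulk RNA fewer cells of a type and less RNA per cell cannot be told apart.

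**Figure D3:**
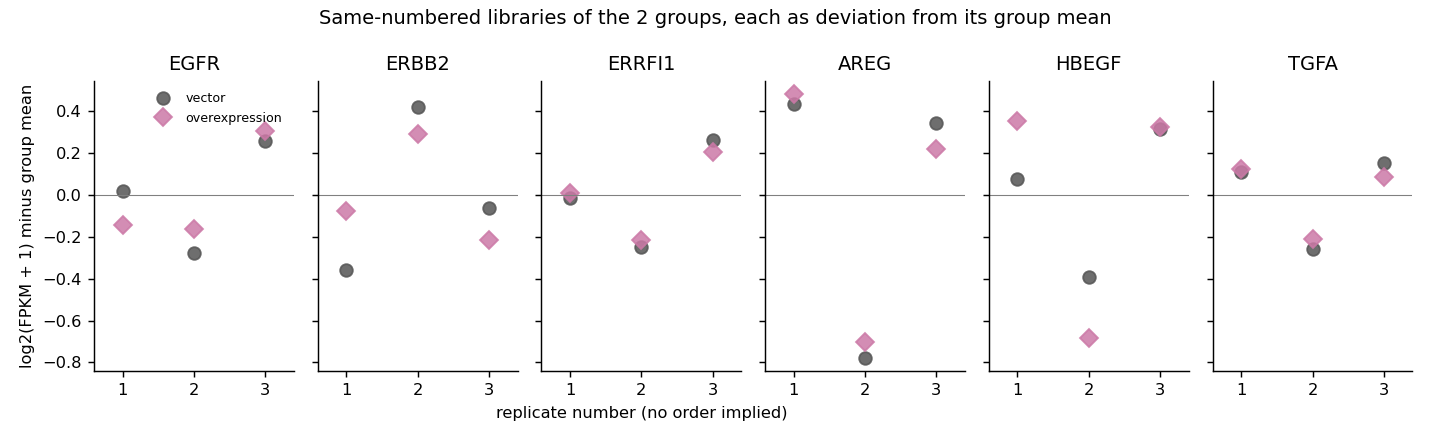
Deviation of log2(FPKM + 1) from the mean of the library's own group (y axis) by replicate number (x axis), for the 6 tested genes. Circles are vector and diamonds are overexpression libraries. AREG is lowest in number 2 of both groups, ERBB2 highest in number 2, and EGFR and ERRFI1 highest in number 3.

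The ligand mRNA as a whole followed the same division. AREG, HBEGF, TGFA and EREG summed to 37.5, 22.1 and 38.8 FPKM with vector and to 48.8, 26.0 and 44.4 FPKM with circMYBL1. Each overexpression library was above the vector library of its number, and the groups overlapped (32.8 ± 9.29 against 39.7 ± 12.1 FPKM). The make-up of the sum also varied by number. AREG made up 28.1% and 32.9% of it in the libraries numbered 2 and 37.8% to 42.3% in the other 4. TGFA made up 41.7% and 43.4% in number 2 and 29.7% to 32.6% in the others. HBEGF lay between 23.5% and 30.1% throughout, and EREG was at most 0.18%. TGFA was thus the most abundant of the 4 in number 2 and AREG in numbers 1 and 3. EGFR mRNA exceeded the ligand sum 1.92-fold to 3.83-fold.

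**Figure D4:**
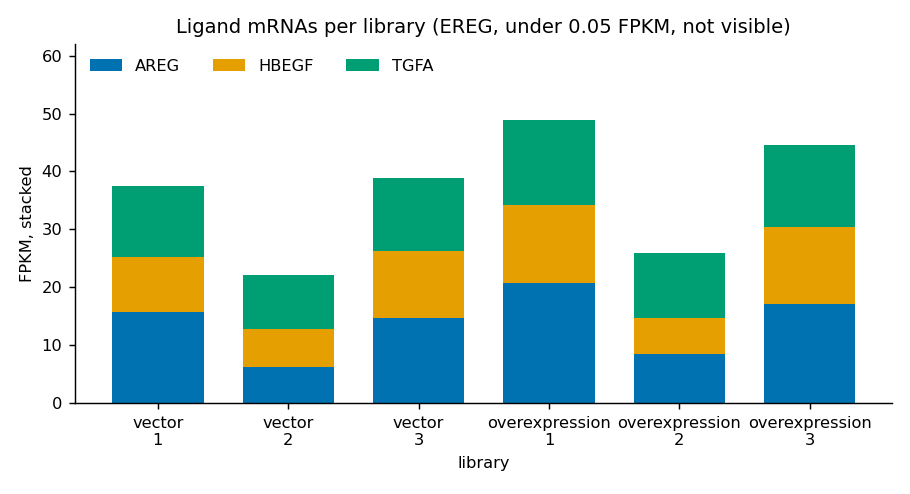
Stacked FPKM of AREG, HBEGF and TGFA (y axis, from 0) in each of the 6 libraries (x axis). The libraries numbered 2 hold 22.1 and 26.0 FPKM in all and the other 4 between 37.5 and 48.8 FPKM, and the AREG part shrinks most in number 2.

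Profiles over the 6 libraries were compared by the root mean square difference of log2(FPKM + 1), each gene centred on its own mean. Within the family EGFR and ERRFI1 were most alike (0.0808), followed by TGFA and ERRFI1 (0.127), and ERBB2 and AREG were least alike (0.796). Among 8252 other genes with a mean of at least 5 FPKM, those near AREG included UAP1, an enzyme of amino-sugar synthesis (0.0616), and DUSP4, an ERK phosphatase (0.0637), where the median gene differed by 0.561. Nearest to HBEGF were ASNS, the asparagine synthetase (0.0336), IL1B, a cytokine (0.0473), and TRIB3, a pseudokinase (0.104). For ERRFI1 they were GPRC5A (0.0291), the integrin linker TLN1 (0.0369) and the helicase BLM (0.0495), and for EGFR TRMT13 (0.0192), ANAPC1 (0.0545) and CSPP1 (0.0551). For TGFA they were SUCO (0.0237), TMEM185B (0.0333) and GMPPA (0.0364), and for ERBB2 TADA3 (0.0207), ZSWIM8 (0.0362) and PPP1R9B (0.0364). With 6 libraries that share the same division by number, such likeness describes these libraries only.

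The other genes of the pathway were read from 8 lists holding 73 genes, of which 65 were tested. For overexpression against vector 0 of the 65 passed with or without the block (limma), with 38 higher and 27 lower and a median log2 fold change of 0.04. The replicate number was called for 33 of them (50.8%), 20 higher and 13 lower in number 2, close to the 46.5% of all genes.

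Of 7 further ligands, 2 were tested. NRG1, a neuregulin that binds ERBB3 and ERBB4, read 3.8 to 8.45 FPKM and was lower in number 2 (-0.64, adjusted p = 0.00996 by the limma F test). NRG4, which binds ERBB4, read 1.74 to 4.78 FPKM and was higher in number 2 (0.81, adjusted p = 0.0018). Neuregulins were thus present while ERBB3 and ERBB4 were near 0. EGF itself was at most 0.0218 FPKM, BTC at most 1.76 FPKM and NRG3 was listed at 0 throughout.

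Of the 6 genes of the ligand shedding machinery, 4 were called and higher in number 2 and 0 called and lower, beside 27.2% and 19.3% of all tested genes. ADAM17, the main ligand sheddase, read 14.2, 26.3 and 16.8 FPKM with vector and 12.6, 23.1 and 17.0 FPKM with circMYBL1 (0.68, SE 0.10, limma F test, adjusted p = 0.00113). ADAM10 gave 0.66 (adjusted p = 0.00219), RHBDF1, a carrier of ADAM17, 0.84 (adjusted p = 0.000663) and FRMD8, which stabilises the carriers, 0.46 (adjusted p = 0.0195). For overexpression against vector the log2 fold changes of the 6 lay between -0.16 (ADAM10) and 0.17 (RHBDF1), and FRMD8 was the most abundant, with a mean of 19.1 FPKM.

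Of 13 tested genes that ERK induces, 9 were called and lower in number 2 and 0 called and higher, beside 19.3% and 27.2% of all tested genes, with a median difference of -0.46 beside 0.07 over all genes. FOSL1, an AP-1 subunit, read 125, 16.1 and 117 FPKM with vector and 150, 25.7 and 111 FPKM with circMYBL1 (-2.56, SE 0.14, limma F test, adjusted p = 6.69e-06). IER3, the most abundant of the list, read 36.9 and 49.0 FPKM in number 2 and 101 to 135 FPKM in the others (-1.45, adjusted p = 2.81e-05). For overexpression against vector 8 of the 13 exceeded their vector partner in 3 of 3 pairs, beside 16.5% of all tested genes. The median log2 fold change was 0.21, beside 0.03 over all tested genes. The mean was higher for 12 of the 13, a share that was not counted over all genes. The exception, the immediate-early factor EGR1, was lower in 3 of 3 pairs (-0.19), as were 11.9% of all tested genes. None passed, and ETV4, an ETS factor (0.30), and DUSP5, a nuclear ERK phosphatase (0.23), had the smallest unadjusted p (limma, 0.145 and 0.329).

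Among the transducers between receptor and nucleus the share called by number was 40% for adaptors, 45.5% for the RAS-ERK cascade and 25% for the PI3K-AKT cascade, beside 46.5% of all tested genes. Of 10 tested adaptors 4 were called, with NCK1 (0.91, adjusted p = 0.00063) and the RAS activator SOS1 (0.56, adjusted p = 0.00432) higher in number 2, while SHC1, the most abundant at a mean of 40.2 FPKM, differed by -0.06. Of 11 genes of the RAS-ERK cascade 5 were called, led by the scaffold KSR1 (1.52, adjusted p = 7.4e-05), higher in number 2, and HRAS (-0.48, adjusted p = 0.00475), lower. MAP2K2, a MEK protein, was the most abundant at 53.0 FPKM. Of 8 genes of the PI3K-AKT cascade 2 were called, both higher in number 2, among them PIK3CA, a catalytic subunit of PI3-kinase (0.41, adjusted p = 0.0248). AKT1 led that list in level, with a mean of 39.5 FPKM. For overexpression against vector the smallest unadjusted p (limma) in these 3 lists were 0.235 for the phospholipase PLCG1 (0.24 on the log2 scale), 0.315 for the kinase AKT2 (0.17) and 0.416 for the MEK protein MAP2K1 (0.12).

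Of 15 genes of receptor turnover 7 were called by number (46.7%, beside 46.5% of all tested genes), 6 higher and 1 lower in number 2. LRIG3, of a family of membrane proteins that act on the receptors, gave 0.67 (adjusted p = 0.00332), and CBLB, a ubiquitin ligase of activated receptors, 0.71 (adjusted p = 0.0054). HGS, which sorts ubiquitinated receptors to lysosomes and was the most abundant at 39.5 FPKM, was the one lower (-0.53, adjusted p = 0.00779; these p-values are from the limma F test). For overexpression against vector the smallest unadjusted p of the list were those of EPN1, an endocytic adaptor (0.34, limma, unadjusted p = 0.0979), and SOCS5 (-0.15, 0.493).

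**Figure D5:**
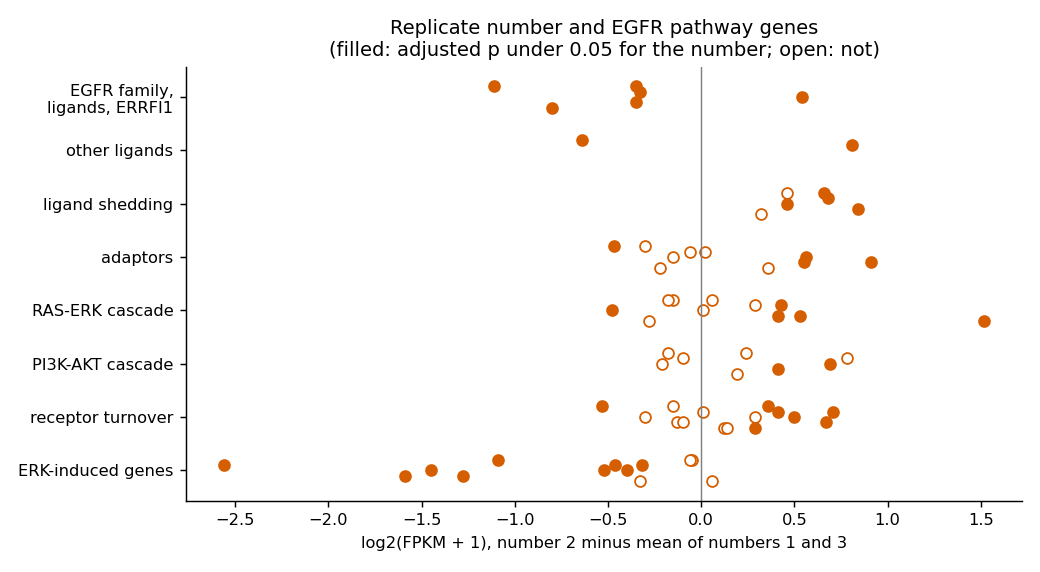
Difference in log2(FPKM + 1) of number 2 from the mean of numbers 1 and 3 (x axis) for the 6 tested members (top row) and each tested gene of the pathway, by list (y axis). Filled points passed the limma F test over the replicate numbers and open points did not. The called ERK-induced genes all lie below 0, down to -2.56, and the called shedding genes all lie above 0, up to 0.84.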

How the data were processed

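The 6 libraries were grouped by sample title. Per the labels' protocols, TRIzol was used for RNA extraction and a NEBNext Ultra kit for mRNA libraries. The submitters' processing notes name HISAT2 and GRCh38. Which counter and annotation were used is not given in the sources used here. FPKM values were deposited by the authors for 27328 loci. No whole-read steps were visible in them, so depth and counting error are unknown, and a few abundant genes can shift the rest.

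The 12064 loci reaching 1 FPKM in 3 or more libraries were tested on log2(FPKM + 1). The fit used limma 3.58.1 under R 4.3.3 (moderated variances with a trend, Benjamini-Hochberg over all tested genes, threshold 0.05), by group and, in an F test with a group term, by replicate number. The pipeline was tested on simulated data. With 3 against 3 libraries an exact permutation p cannot go below 0.1. With group means subtracted, libraries of the same number correlated across genes at 0.725, 0.881 and 0.529, all above 0.1, so the numbers were taken to pair them and a block fit was run beside the group-only fit. Numbers 1 and 3 also correlated across groups (0.424 and 0.412), so they are weakly told apart. This pairing comes from the data, as the labels do not state it.

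The members and lists were chosen with earlier results of these data known. Named genes were the members, the highest gene of each list, up to 2 genes of each list with the smallest p in either comparison, and the 3 nearest profiles per member. Some genes that the rule names are not reported here. Genes outside that rule were named after their values were seen. Positions and exon overlaps are from GENCODE 29. Alternatives were other pseudocounts (0.1, 0.5), filters, scalings, no trend, the block, GC and length correction, and leaving out libraries.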

Additional observations from a re-analysis of the deposited data

How the results depend on the processing

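No member was called for overexpression against vector in any of the 22 alternatives run, including the replicate block, and the members' adjusted p (limma) lay between 0.446 and 1. Over all genes the count was 0 as reported, 12 with the replicate block, 2 with the replicate block and GC and length correction, and 11, 13 and 11 with the block under TPM, trimmed mean factors and quantile scaling. These last 3 were added after the data were seen. Leaving out 1 library gave 0 to 1 calls without the block, and leaving out a number gave 14 to 148 with it. The log2 fold change of EGFR turned sign under TPM (-0.01), trimmed mean factors (-0.02) and quantile scaling (-0.05), with the same values when the replicate block was added. With libraries left out EGFR ranged from -0.14 to 0.14, ERBB2 from -0.07 to 0.33, AREG from -0.06 to 0.68, HBEGF from -0.01 to 0.52 and ERRFI1 from -0.08 to 0.18, while TGFA kept its sign (0.08 to 0.32). ERBB2 gave -0.03 with the block when number 1 was left out.

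For the replicate number, all 6 tested members kept the direction of number 2 in the 12 alternatives that give one. Without a filter the genes called were 3389 and the members 2. Leaving out a number gave 447 to 5848 genes and 0 to 6 members. The split of calls into higher and lower in number 2 was 3282 and 2323 as reported, 2845 and 2995 with trimmed mean factors, 2582 and 2786 with quantile scaling, and 2766 and 2869 after GC and length correction. The cause of these shifts was not tested. Count-based tests were not run, since the file holds no counts. Depth is unknown, so values such as those of EREG and ERBB3 have no counting error.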
